A study of Rattus norvegicus with 12 samples.

Results

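The 9 genes described here make up the interleukin 1 system of the islet and the cytokines around it. They are the ligands Il1a and Il1b, their receptor antagonist Il1rn, the signalling receptor Il1r1, the cytokines Il6 and Tnf, the colony factors Csf1 and Csf3, and Nos2, the inducible nitric oxide synthase. They were chosen by gene symbol from a deposited table of rat islet RNA sequencing, where each symbol matched 1 of 17407 entries. The choice was made with earlier results of these data known. With means of at least 1 scaled unit across the 12 libraries, all 9 were among the 12339 genes tested. Il1a, Tnf and Csf3 passed that filter only through the libraries of GDM offspring, since their means over the 6 libraries of lean dams were 0.849, 0.954 and 0.721. Because of that choice and this filter, counts over the 9 genes and the shares beside them are given as a description. The tests of these 3 genes are given with the filter as a limit.

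Interleukin 1 alpha and beta are pro-inflammatory cytokines that bind the same receptor, which signals through the adaptor Myd88 and Irak kinases to the transcription factor NF-kappa B. The receptor antagonist binds that receptor without activating it. Pancreatic beta cells of rodents carry abundant interleukin 1 receptor, and in rat islets interleukin 1 beta is a classical inducer of Nos2, whose product nitric oxide impairs insulin secretion. Interleukin 6, tumour necrosis factor and the colony factors are made by macrophages, fibroblasts, endothelium and epithelium after NF-kappa B activation.

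Islets came from Sprague Dawley offspring aged 15 weeks, in 4 groups of 3 libraries named first by the dam and then by the weaning diet. Offspring of dams with gestational diabetes mellitus (GDM) were weaned onto a low-fat diet (GDM-LF) or onto a high-fat and sucrose diet (GDM-HFS), and offspring of lean dams onto the same diets (Lean-LF and Lean-HFS), in each case for 12 weeks. GDM was brought on by feeding the dams an HFS diet with 45% fat, while lean dams ate LF diet with 10% fat, with 6 dams on each diet from 6 weeks before mating through suckling. All dams were mated with males on LF diet, and all litters were cut to 8 pups. Neither litter nor sex is given in the labels used here, so the p-values measure only the spread between these 12 samples. Values are reads per gene scaled to a common depth and are called scaled values. In them 1 read was worth 0.166 to 0.577, depending on the library.

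Several libraries stood apart. The libraries held 11469290 to 27492858 reads over genes. Of these, ribosomal RNA took 1.84% to 8.55% in offspring of GDM dams. In offspring of lean dams it took 1.84% in Lean-LF 3 and 11.3% to 39.0% in the other libraries. Apart from Lean-LF 3, every lean library thus lay above every GDM library in this share. All 8 beta cell markers were abundant in every library, with summed scaled values of 1239800 to 2257240, mostly from Ins1 and Ins2. Their mean log2 level was lowest in GDM-LF 2, at 12.2, against 12.5 to 13.1 elsewhere. In GDM-LF 2 Nkx6-1 was at 150, against 268 to 772 elsewhere, and Slc2a2 at 2879, against 4507 to 11751. Iapp, at 28124 in GDM-LF 2, lay within the range of the other libraries. GDM-LF 2 had a summed acinar marker level of 696339, against 28074 to 232976 in the other libraries, and a summed immediate early gene level of 12555, against 1970 to 5181. GDM-LF 1 had 7871 for stellate and fibroblast markers, against 439 to 1432 elsewhere. Duct markers had a mean log2 level of 8.10 in GDM-LF 1 and 8.24 in GDM-LF 2, against 5.83 to 7.60 elsewhere. Macrophage markers summed to 124 in GDM-LF 1 and 67.5 in GDM-HFS 3, against 338 to 897 elsewhere. GDM-LF 1, GDM-LF 2 and GDM-HFS 3 carry the letter K in their titles, of no stated meaning, and all other libraries carry G, so within lean dams there is no K library.

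Csf3, Il6 and Il1a rose in islets of GDM offspring when both weaning diets were averaged, and none of the 9 genes fell. On the HFS diet alone their differences were 1.08, 0.50 and 0.16, and none passed. The averaged call held in 21 of 28 alternatives for Csf3, 13 for Il6 and 6 for Il1a. With the acinar level or Rn45s as a covariate it held for none of them. Csf3, which encodes granulocyte colony factor, was higher in each of the 6 GDM libraries than in any of the 6 lean libraries. For all 3 genes the GDM-LF libraries were the 3 highest of the study, and 7 of the 9 genes reached their highest value in GDM-LF 2. Il1r1 was the exception in direction, with its lowest value in that same library. With limma and an adjusted p under 0.05, 3 of 9 genes rose, where 6.13% of all tested genes were called higher and 5.43% lower. On the LF diet alone 2 of 9 rose, Il1a and Csf3, where 0.851% of all tested genes were called higher and 0.729% lower. With no filter on low values, Csf3 passed averaged over diets (adjusted p = 0.0243), while Il1a (0.0584) and Il6 (0.0699) did not, and on the LF diet neither Il1a nor Csf3 did (0.0693 each). In HFS offspring 0 of 9 passed, where 0.0081% of all tested genes were called higher. In bulk RNA a larger number of cells of a type and more RNA per cell cannot be told apart, and this holds for every difference below.

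**Figure D1:**
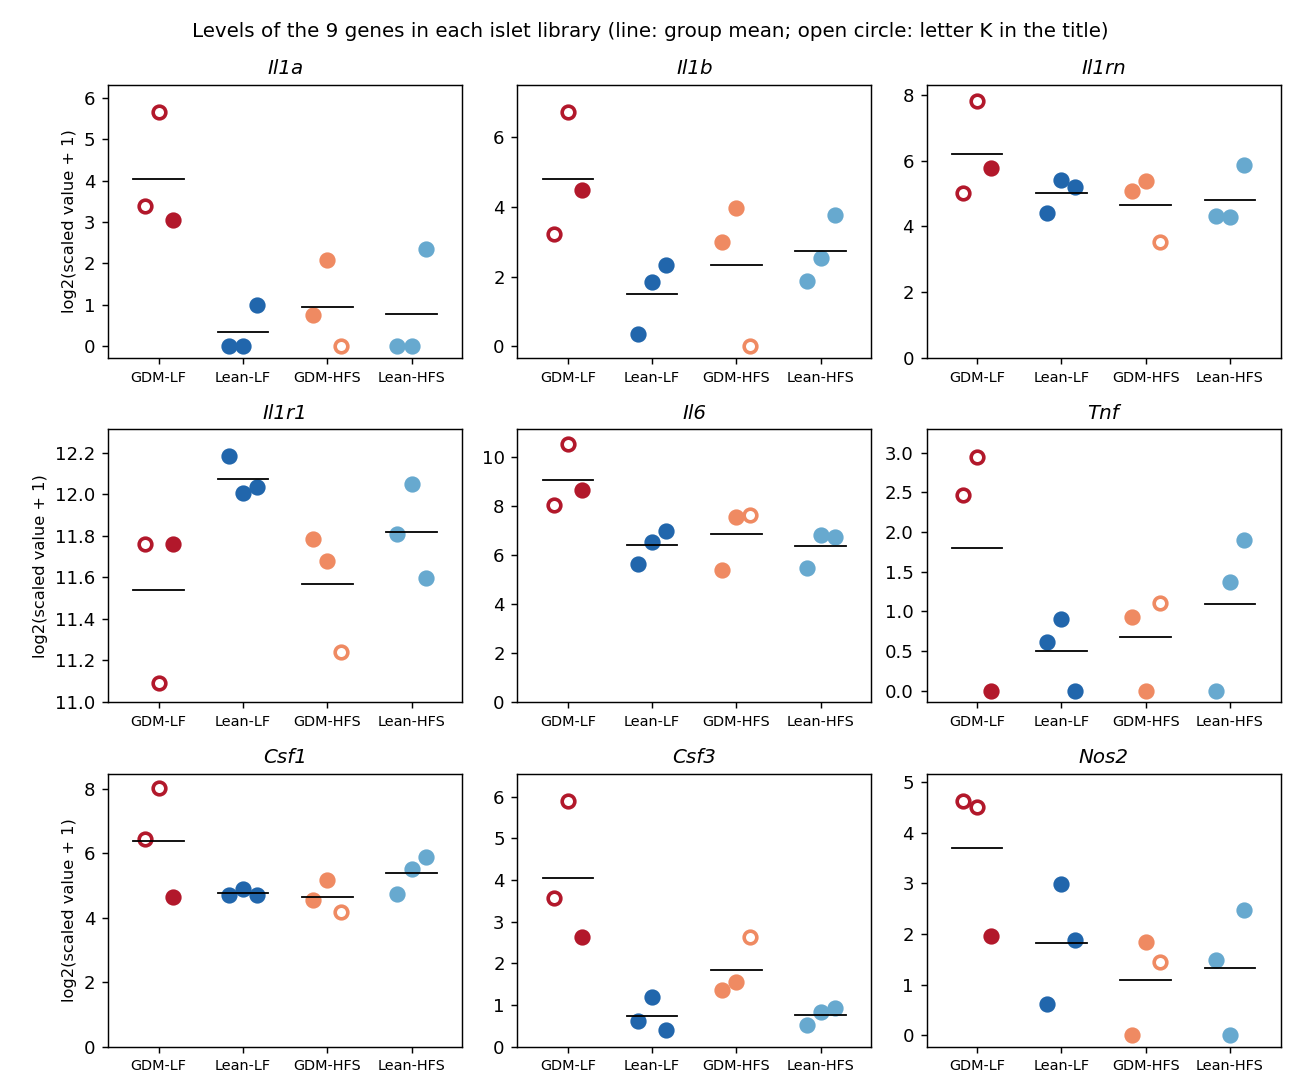
Scaled values of the 9 genes, as log2(scaled value + 1) on the vertical axis, in every library of the 4 groups. Each point is a library, the line is the group mean on that log scale, and open circles are libraries with the letter K. The axis of Il1r1 does not start at 0. GDM-LF 2 was the highest library for 7 of the 9 genes and the lowest for Il1r1.

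Per kilobase of transcript, Il1r1 was by far the most abundant of the 9, at 1998 scaled units per kilobase over all libraries, higher than 98.4% of tested genes. Il6 followed at 249.7, above 89.1% of tested genes. Il1rn stood at 25.4, Csf1 at 13.8 and Il1b at 11.7 scaled units per kilobase. Csf3, Il1a, Nos2 and Tnf were sparse, at 5.70, 3.23, 1.53 and 0.944 per kilobase. The receptor was thus present in every library, with 4200 to 25277 reads, while its ligand Il1a had no read in 5 of the 12 libraries and Tnf had no read in 4.

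The promoters of both ligands, of Il6 and of Il1r1 are shown because the kappa B site, where NF-kappa B binds, is the textbook link between interleukin 1 and its targets. RefSeq on build GRCr8 gave the 250 bases upstream of the start for 6 of the 9 genes, and Csf1, Csf3 and Nos2 are named only. Capitals mark matches, on either strand, to the kappa B consensus, to TGACGTCA (cyclic AMP response element), to TGANTCA (AP-1), to TTGNNCAA (C/EBP) or to TATAAA, and no match overlapped another. The sequences run 5′ to 3′ along the gene and lie at chr3:136990018-136990267 (minus strand) for Il1a, chr3:137036582-137036831 (minus) for Il1b, chr9:50034133-50034382 (plus) for Il1r1 and chr4:5894576-5894825 (minus) for Il6.
Il1a: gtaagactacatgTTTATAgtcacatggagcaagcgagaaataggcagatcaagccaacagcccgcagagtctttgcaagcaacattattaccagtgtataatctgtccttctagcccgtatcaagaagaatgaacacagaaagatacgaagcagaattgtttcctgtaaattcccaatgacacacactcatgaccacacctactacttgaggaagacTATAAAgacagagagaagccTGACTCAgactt
Il1b: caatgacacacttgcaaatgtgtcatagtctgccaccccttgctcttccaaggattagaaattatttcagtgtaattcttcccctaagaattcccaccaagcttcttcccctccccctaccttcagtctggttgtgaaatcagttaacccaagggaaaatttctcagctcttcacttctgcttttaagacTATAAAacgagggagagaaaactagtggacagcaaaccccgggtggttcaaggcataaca
Il1r1: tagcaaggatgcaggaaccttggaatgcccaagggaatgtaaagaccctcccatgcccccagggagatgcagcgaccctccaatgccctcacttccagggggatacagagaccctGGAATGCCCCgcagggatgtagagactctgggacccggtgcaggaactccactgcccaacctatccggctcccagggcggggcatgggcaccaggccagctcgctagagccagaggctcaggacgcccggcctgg
Il6: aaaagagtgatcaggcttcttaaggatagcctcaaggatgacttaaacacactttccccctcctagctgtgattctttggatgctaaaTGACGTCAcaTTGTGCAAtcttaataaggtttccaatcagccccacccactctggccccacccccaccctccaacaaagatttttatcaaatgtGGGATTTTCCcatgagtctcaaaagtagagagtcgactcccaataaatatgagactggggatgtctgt
The Il6 window held a kappa B match from base -68 to -59, a TGACGTCA from -162 to -155 and a TTGNNCAA match from -152 to -145. Il1r1 held a kappa B match on the opposite strand, from -135 to -126. Il1a held a TGANTCA match from -12 to -6, and Il1a, Il1b, Il1rn and Tnf each held at least 1 TATAAA match. Among 33469 promoter windows of the same length, 3.54% held the kappa B consensus, 1.59% TGACGTCA, 6.34% TGANTCA, 5.25% TTGNNCAA and 12.9% TATAAA. These matches describe letters only.

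Il1a encodes interleukin 1 alpha, the ligand that cells hold as an active precursor and release on damage (chromosome 3, 128180475 to 128190980, build rn5). Its scaled values were 9.41, 49.4 and 7.28 in GDM-LF libraries, against 0, 0 and 0.997 in Lean-LF libraries. In GDM-HFS libraries they were 0.674, 3.23 and 0, against 0, 0 and 4.10 in Lean-HFS libraries. All GDM-LF libraries thus lay above all Lean-LF libraries, and above all other libraries of the study, while on the HFS diet the groups overlapped. Il1a rose on the LF diet by 3.70 on the log2 scale (SE 0.817, limma adjusted p = 0.0477), and by 1.93 averaged over diets (SE 0.578, adjusted p = 0.0479). On the HFS diet its difference was 0.16 (95% interval -1.60 to 1.92). The reads behind this were 226 in the 3 GDM-LF libraries and 6 in the 3 Lean-LF libraries, a ratio per depth of 47.1 with a 95% counting interval of 21.3 to 130. That interval covers counting error only, not the spread between libraries, and GDM-LF 2 alone held 176 of the 226 reads. Without GDM-LF 2 the LF difference was 2.88 (adjusted p = 0.163) and the averaged difference 1.52 (adjusted p = 0.0966). The averaged call was also lost when any of GDM-LF 1, the 3 GDM-HFS libraries, Lean-LF 1, Lean-LF 2, Lean-HFS 1 or Lean-HFS 2 was left out, with adjusted p of 0.0535 to 0.122 over the 9 such fits. On the LF diet the Il1a call was lost in 10 of 12 such fits, all but those without GDM-LF 3 or Lean-LF 3, with adjusted p of 0.0565 to 0.268. In these 10 fits 0 of all tested genes were called on the LF diet, and in the 6 that left out an HFS library the Il1a difference was 3.70 as before.

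Il1b encodes interleukin 1 beta, made as an inactive precursor mainly by macrophages and cut by caspase 1 (chromosome 3, 128133929 to 128140351). Il1b had scaled values of 8.28, 105 and 21.3 in GDM-LF libraries, against 0.266, 2.61 and 3.99 in Lean-LF libraries. The GDM-HFS libraries stood at 6.96, 14.6 and 0, against 2.69, 4.78 and 12.7 in Lean-HFS libraries. The LF groups did not overlap, but the GDM-HFS group held both a library above all Lean-HFS libraries and a library with no Il1b read at all. Neither the LF difference of 3.30 (SE 1.02, limma adjusted p = 0.0743) nor the averaged difference of 1.45 (SE 0.719, adjusted p = 0.189) passed. With the macrophage marker level of each library as a covariate, the averaged difference was 1.90 and passed (adjusted p = 0.0223), the 1 of 28 alternatives in which it did. It was 0.81 with the acinar level (adjusted p = 0.516), 0.88 with Rn45s (0.998) and 0.97 without GDM-LF 2 (0.381). DESeq2 on the recovered reads called the LF difference of Il1b (4.29, adjusted p = 0.0221). On the LF diet, here and for the genes below, DESeq2 called 911 genes higher and 735 lower of 12140. With limma these were 105 and 90 of 12339.

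Il1rn, the receptor antagonist (chromosome 3, 1456036 to 1461452), had scaled values of 31.2, 222 and 54.2 in GDM-LF libraries, against 20.2, 41.3 and 35.6 in Lean-LF libraries. GDM-HFS libraries had 32.6, 40.9 and 10.4, against 18.8, 18.3 and 56.9 in Lean-HFS libraries. The groups overlapped on both diets. The differences were 1.20 on the LF diet (limma adjusted p = 0.272), -0.16 on the HFS diet and 0.52 on average (adjusted p = 0.482). The averaged difference was 0.12 without GDM-LF 2.

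Il1r1, the signalling receptor (chromosome 9, 46683054 to 46720528), had scaled values of 3462, 2183 and 3468 in GDM-LF libraries, against 4654, 4104 and 4200 in Lean-LF libraries. On the HFS diet they were 3531, 3280 and 2423 in GDM-HFS libraries, against 3584, 4231 and 3099 in Lean-HFS libraries. All GDM-LF libraries lay below all Lean-LF libraries, while the HFS groups overlapped. The differences of -0.54 on the LF diet (SE 0.231, limma adjusted p = 0.158) and -0.39 on average (SE 0.163, adjusted p = 0.124) did not pass. Their size was small beside those of the ligands, and the averaged difference lay between -0.45 and -0.19 in all 28 alternatives run.

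Set against each other per kilobase, the antagonist outweighed its ligands in every library with a ligand read. The scaled value per kilobase of Il1rn over the sum of Il1a and Il1b was 1.46, 1.10 and 1.41 in GDM-LF libraries, against 51.8, 10.8 and 5.21 in Lean-LF libraries. On the HFS diet it was 3.00 and 1.66 in GDM-HFS 1 and GDM-HFS 2, with no ligand read in GDM-HFS 3, against 4.77, 2.61 and 2.50 in Lean-HFS libraries. The LF groups did not overlap and the HFS groups did. The Lean-LF ratios rest on few ligand reads, with 0, 0 and 6 for Il1a and 1, 6 and 24 for Il1b. On a log2 scale with 1 added to both terms, the measure was 1.10 lower in GDM offspring (difference -1.10, two-sided exact permutation p = 0.075, with dam labels permuted within diet and 0.005 the smallest p possible). The difference in this ratio between dams therefore did not pass.

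**Figure D2:**
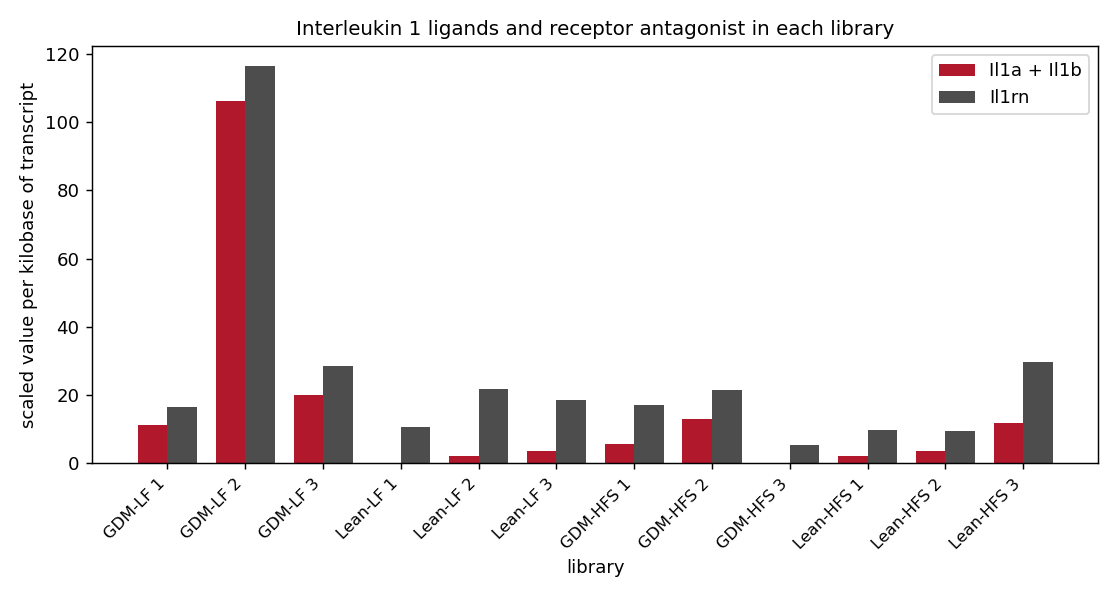
Scaled value per kilobase of transcript of Il1a plus Il1b (red bars) and of Il1rn (grey bars) in each of the 12 libraries. Ligands and antagonist were closest to each other in the 3 GDM-LF libraries, where the ratio of antagonist to ligands was 1.10 to 1.46.

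Il6 encodes interleukin 6, a cytokine of the acute phase that many cells make (chromosome 4, 3095536 to 3100112). Il6 had scaled values of 267, 1481 and 400.3 in GDM-LF libraries, against 49.5, 93.1 and 128 in Lean-LF libraries. The GDM-HFS libraries stood at 41.3, 188 and 198, against 43.9, 114 and 107 in Lean-HFS libraries. The LF groups did not overlap, and on the HFS diet 2 of 3 GDM libraries lay above all lean libraries while GDM-HFS 1 lay below them. Il6 rose by 1.59 on the log2 scale averaged over diets (SE 0.474, limma adjusted p = 0.0472). Its LF difference of 2.68 did not pass (SE 0.670, adjusted p = 0.0532), although DESeq2 on the recovered reads called it (adjusted p = 0.00478). The HFS difference was 0.50 (95% interval -0.94 to 1.95). Without GDM-LF 2 the averaged difference was 1.23 (adjusted p = 0.0884). That call was also lost without GDM-HFS 2, GDM-HFS 3, Lean-LF 1, Lean-LF 2 or any Lean-HFS library, with adjusted p of 0.0583 to 0.130 over these 8 fits.

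Tnf encodes tumour necrosis factor (chromosome 20, 6936229 to 6938846) and was near the limit of detection, with 0 to 24 reads per library. Its scaled values were 4.52, 6.74 and 0 in GDM-LF libraries, against 0.532, 0.869 and 0 in Lean-LF libraries. GDM-HFS libraries had 0.898, 0 and 1.15, against 0, 1.59 and 2.73 in Lean-HFS libraries. The groups overlapped on both diets, and the differences were 1.30 on the LF diet (limma adjusted p = 0.284) and 0.44 on average (adjusted p = 0.599). Both GDM-LF libraries above the lean range carry the letter K, and without the K libraries the LF difference was -0.51.

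Csf1 encodes macrophage colony factor, which keeps tissue macrophages alive (chromosome 2, 229989435 to 230017945). Csf1 had scaled values of 86.9, 259 and 23.9 in GDM-LF libraries, against 25.3, 28.7 and 24.9 in Lean-LF libraries. In GDM-HFS libraries they were 22.5, 35.3 and 17.3, against 26.0, 44.6 and 58.3 in Lean-HFS libraries. The 2 high GDM-LF libraries are the 2 with the letter K, and the other GDM-LF library lay just below all Lean-LF libraries. The LF difference of 1.60 (SE 0.618, limma adjusted p = 0.124) did not pass and was -0.13 without the K libraries, while DESeq2 called it (2.23, adjusted p = 0.00389), and the averaged difference was 0.43 (adjusted p = 0.530).

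Csf3 encodes granulocyte colony factor, which drives neutrophil production and release (chromosome 10, 86413103 to 86415477). Csf3 had scaled values of 10.9, 58.9 and 5.24 in GDM-LF libraries, against 0.532, 1.30 and 0.333 in Lean-LF libraries. The GDM-HFS libraries had 1.57, 1.94 and 5.19, against 0.448, 0.796 and 0.911 in Lean-HFS libraries. Every GDM library lay above every lean library on either diet, an arrangement found in 2.8% of all tested genes. Csf3 rose by 2.19 on the log2 scale averaged over diets (SE 0.488, limma adjusted p = 0.0182) and by 3.30 on the LF diet (SE 0.689, adjusted p = 0.0477). Its HFS difference of 1.08 did not pass (95% interval -0.41 to 2.56, adjusted p = 0.504).

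In reads, Csf3 had 29, 210 and 18 in GDM-LF libraries, against 2, 3 and 2 in Lean-LF libraries, and 7, 9 and 9 in GDM-HFS libraries, against 1, 2 and 2 in Lean-HFS libraries. The ratio per depth was 45.9 on the LF diet (95% counting interval 22.0 to 115) and 3.20 on the HFS diet (1.20 to 10.7), and these intervals cover counting error only. Without GDM-LF 2 the averaged difference was 1.72 and still passed (adjusted p = 0.0258), while the LF difference was 2.36 and did not (adjusted p = 0.163). The averaged call was lost without GDM-HFS 3, Lean-LF 1, Lean-LF 2 or Lean-HFS 1, at adjusted p of 0.0501 to 0.0594. The LF call was lost in the same 10 fits as that of Il1a. Without the 3 libraries that carry the letter K, which leaves 1 GDM-LF library, the averaged differences were 1.29 for Csf3 (limma adjusted p = 0.197), 1.67 for Il1a (0.239) and 1.18 for Il6 (0.272). Of the 9 genes Csf3 was also called most often, in 21 of 28 alternatives for the averaged difference, against 13 for Il6 and 6 for Il1a.

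Nos2, the inducible nitric oxide synthase (chromosome 10, 65335228 to 65456957), had scaled values of 23.7, 21.9 and 2.91 in GDM-LF libraries, against 0.532, 6.96 and 2.66 in Lean-LF libraries. In GDM-HFS libraries they were 0, 2.58 and 1.73, against 1.79, 0 and 4.55 in Lean-HFS libraries. Here too the high libraries were GDM-LF 1 and GDM-LF 2, while GDM-LF 3 lay within the range of the Lean-LF libraries. The differences were 1.88 on the LF diet (limma adjusted p = 0.182) and 0.83 on average (adjusted p = 0.374), and without the K libraries they were 0.14 and -0.13.

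**Figure D3:**
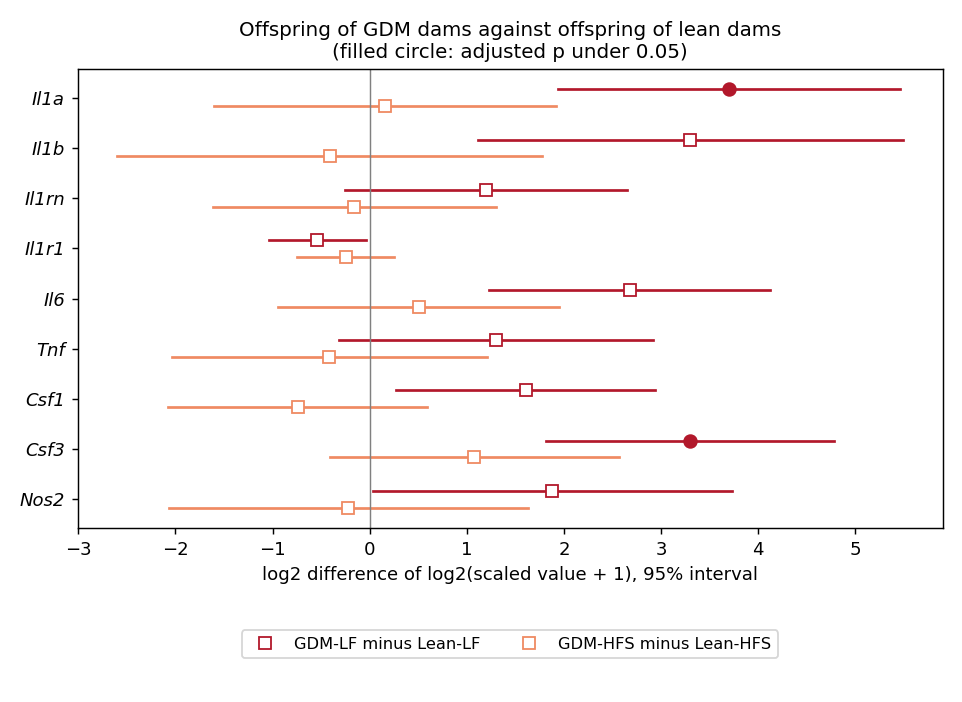
Differences of the 9 genes between offspring of GDM and lean dams on the LF diet (red) and on the HFS diet (orange), as log2 differences with 95% intervals from limma. Filled circles passed an adjusted p of 0.05. On the LF diet Il1a (3.70) and Csf3 (3.30) passed, and all HFS intervals reached across 0.

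Within the GDM-LF group the libraries were not alike. Above all Lean-LF libraries lay 7 of the 9 genes in GDM-LF 1, 8 in GDM-LF 2 and 5 in GDM-LF 3, where 35.8%, 39.2% and 29.6% of all tested genes lay above them. The 5 genes above the Lean-LF range in GDM-LF 3, the group's only library with the letter G, were Il1a, Il1b, Il1rn, Il6 and Csf3. Il1r1 lay below the Lean-LF range in all 3 GDM-LF libraries. Group by group, 4 of 9 genes (Il1a, Il1b, Il6 and Csf3) had GDM-LF libraries all above the Lean-LF libraries, where 12.9% of all tested genes did, and 1 of 9 (Il1r1) had them all below, where 12.4% did. Among HFS offspring 1 of 9 (Csf3) had all GDM libraries above all lean libraries, where 12.7% of tested genes did. Above all Lean-HFS libraries lay 1 of the 9 genes in GDM-HFS 1, 3 in GDM-HFS 2 and 2 in GDM-HFS 3, where 24.2%, 26.6% and 31.8% of all tested genes lay above them.

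The weaning diet was compared within offspring of GDM dams, where 8 of the 9 genes had a negative HFS minus LF difference. The values on both diets are those given above for GDM-HFS and GDM-LF libraries. Il1a, Il6, Csf3 and Nos2 had all GDM-HFS libraries below all GDM-LF libraries, 4 of 9 genes where 6.61% of all tested genes did so. The differences were -3.09 for Il1a, -2.61 for Nos2, -2.49 for Il1b, -2.21 for Il6, -2.19 for Csf3 and -1.73 for Csf1, against 0.03 for Il1r1. Without GDM-LF 2 they were -2.27 for Il1a, -1.53 for Il1b, -1.49 for Il6, -1.26 for Csf3 and -0.91 for Csf1, and without the K libraries Csf1 was at 0.23. None of the 9 passed with limma (adjusted p 0.470 to 0.975), although 7 of the 9 had an unadjusted p under 0.05, where 9.63% of all tested genes did, and 0 of all tested genes were called. edgeR called 0 of the 8 genes it tested, and DESeq2 called Csf1 (adjusted p = 0.0423). The comparison shares its GDM-LF libraries with the comparison of dams on the LF diet.

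Within offspring of lean dams the HFS diet gave 0 of 9 genes past the threshold, with 0 also at an unadjusted p under 0.05 with limma, 0 of the 8 tested with edgeR and 0 of 9 with DESeq2. Here limma called 0 of all tested genes. The differences ran from -0.51 for Nos2 to 1.23 for Il1b, and 5 of 9 were positive. Averaged over dams, all 9 HFS minus LF differences were negative, from -1.56 for Nos2 to -0.11 for Il1r1. None of them passed with limma (adjusted p 0.883 to 0.952, 4 at an unadjusted p under 0.05, where 4.95% of all tested genes were), with 0 of all tested genes called, and edgeR and DESeq2 called 0 of the genes they tested among the 9.

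Whether the effect of GDM depended on the diet was tested as an interaction, the HFS difference between dams less the LF difference. It was -3.71 for Il1b, -3.54 for Il1a, -2.35 for Csf1, -2.22 for Csf3 and -2.17 for Il6, and 8 of the 9 were negative. None passed with limma (adjusted p 0.784 to 0.866, 5 of 9 at an unadjusted p under 0.05, where 5.92% of all tested genes were), with 0 called by edgeR and by DESeq2, and limma called 0 among all tested genes. Before adjustment over all genes the 95% intervals excluded 0 for these 5 genes, from -6.81 to -0.62 for Il1b and -6.03 to -1.05 for Il1a to -4.32 to -0.12 for Csf3. The call on 1 diet and its absence on the other are therefore not shown to differ.

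Other genes of these pathways were read from 7 lists with 82 genes, 79 of them in the table and 70 tested. Averaged over diets, 5 of 70 rose and 2 of 70 fell in GDM offspring, where 6.13% of all tested genes were called higher and 5.43% lower, and the median difference was 0.17, against 0.03 over all tested genes. The counts for single lists below are small and are given as a description. On the LF diet 1 of 70 rose, Birc3, where 0.851% of all tested genes were called higher, and the median was 0.36, against 0.05 over all tested genes. On the HFS diet and in the comparisons of weaning diets 0 of 70 passed.

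Among other interleukin 1 family genes, 2 of 9 tested rose. Il1r2, the decoy receptor that binds interleukin 1 without signalling, rose by 0.82 (SE 0.215, limma adjusted p = 0.0306). Its scaled values were 105, 96.6 and 70.5 in GDM-LF libraries, against 35.9, 32.2 and 66.1 in Lean-LF libraries, and 59.8, 83.9 and 81.9 in GDM-HFS libraries, against 48.4, 67.3 and 36.4 in Lean-HFS libraries. Il1rl1, the receptor of interleukin 33, rose by 1.48 (adjusted p = 0.0471), with 11.7, 40.7 and 9.03 in GDM-LF libraries, against 2.66, 1.74 and 2.66 in Lean-LF libraries. On the HFS diet the groups overlapped, with 3.59, 6.67 and 15.0 in GDM-HFS libraries, against 1.79, 5.17 and 9.11 in Lean-HFS libraries. The HFS difference of Il1rl1 was 0.56 (limma adjusted p = 0.716). The co-receptor Il1rap, the interleukin 18 binding protein Il18bp and the inhibitory receptor Sigirr had differences of 0.46, 0.58 and -0.00, none of which passed.

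In the list of interleukin 1 receptor signalling, 0 of 12 rose and 2 of 12 fell. Irak1, the kinase recruited to the active receptor, had scaled values of 508, 527 and 563 in GDM-LF libraries, against 1039, 854 and 687 in Lean-LF libraries, and 732, 553 and 550.3 in GDM-HFS libraries, against 1052, 717 and 708 in Lean-HFS libraries. It fell by 0.55 on the log2 scale (limma adjusted p = 0.0291). Traf6, the ubiquitin ligase after Irak1, fell by 0.47 (adjusted p = 0.0492), and the adaptor Myd88 had a difference of -0.01. Of the genes of interleukin 1 processing and the inflammasome, such as Casp1 and Nlrp3, 0 of 8 tested passed.

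Of the interleukin 6 family and its receptors 1 of 14 rose: Lif, a cytokine that signals through the shared receptor chain Il6st, by 0.94 (limma adjusted p = 0.0436). Il6r and Il6st, the receptor chains for interleukin 6, had differences of -0.03 and -0.40 and did not pass. Of the tumour necrosis factor family 1 of 11 rose: Birc3, an apoptosis inhibitor and NF-kappa B target. Its scaled values were 168, 493 and 128 in GDM-LF libraries, against 51.4, 60.0 and 57.0 in Lean-LF libraries, and 83.6, 103 and 86.5 in GDM-HFS libraries, against 46.6, 61.3 and 81.0 in Lean-HFS libraries. All GDM libraries lay above all lean libraries, and Birc3 rose by 1.25 averaged over diets (SE 0.270, adjusted p = 0.0160) and by 1.95 on the LF diet (SE 0.382, adjusted p = 0.0477). The receptors Tnfrsf1a and Tnfrsf1b had averaged differences of -0.44 and 0.12 and did not pass.

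Of the colony factors and their receptors 0 of 6 tested passed. Csf1r, the macrophage receptor for Csf1, had 4.89, 22.5 and 22.1 in GDM-LF libraries, against 29.6, 40.0 and 40.0 in Lean-LF libraries, and its averaged difference of -1.05 did not pass. Csf2rb had a difference of -0.28. Csf3r, the receptor for granulocyte colony factor, was at 0 to 0.898 in every library and was not tested. Csf2, which encodes granulocyte-macrophage colony factor, had 53.3 in GDM-LF 2, against 0 to 3.01 in the other libraries. In the list of nitric oxide synthesis 1 of 10 rose: Gch1, the first enzyme in making the cofactor tetrahydrobiopterin, by 0.70 (limma adjusted p = 0.0267). Leaving out 1 library ended the averaged call of each of these 7 genes in 2 (Birc3) to 10 (Traf6) of 12 fits. For Birc3 these were the fits without Lean-LF 1 or Lean-LF 2 (adjusted p of 0.0501 to 0.0562), and its LF call was lost in the same 10 fits as that of Il1a, in which no gene was called.

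Genes with the most similar pattern to each of the 9 were taken by Pearson correlation of log2 levels over the 12 libraries, as a description. For Il6 they were Areg (r = 0.97), Cxcl2 (0.96) and Cxcl1 (0.96). Cxcl1, a chemokine that attracts neutrophils, had 181, 1823 and 176 in GDM-LF libraries, against 10.4, 61.8 and 29.1 in Lean-LF libraries, and 26.5, 92.9 and 150.0 in GDM-HFS libraries, against 13.4, 74.0 and 52.4 in Lean-HFS libraries. For Csf3 they were Irf7 (0.97), Birc3 (0.96) and Ptges (0.96), the last of which encodes an inducible prostaglandin E synthase. Ptges had 123, 628 and 67.3 in GDM-LF libraries, against 21.0, 33.5 and 18.9 in Lean-LF libraries.

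For Il1a the most similar genes were Hk2, which encodes hexokinase 2, the chemokine gene Ccl20 and Cav2 (r of 0.95 to 0.96), and for Il1b they were Ccl6, Tnnt2 and Slc47a1 (0.91 to 0.93). Il1rn was closest to Gfod2, Slpi and Irak2 (0.93 to 0.96), and Csf1 to Tnip1, Selp and Il2ra (0.94 to 0.95). Tnf was closest to Klf5, Tspan8 and Erbb2 (0.92 to 0.95), and Nos2 to F2rl3, Piezo1 and Ccr7 (0.91 to 0.94). Il1r1 stood apart from these in its neighbours, with Elavl4, Ero1b and Jade1 (0.95 to 0.96). Ero1b, which encodes an oxidase of disulphide formation abundant in beta cells, had 1993, 908 and 1749 in GDM-LF libraries, against 2660, 2388 and 2379 in Lean-LF libraries. All these correlations share the library GDM-LF 2, which was extreme for most of the 9.

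Markers of other cells are given beside these results. Of 22 macrophage markers 20 had a mean of at least 1, and their summed scaled value was 124 to 851 in GDM-LF libraries, against 386 to 832 in Lean-LF libraries, and 67.5 to 897 in GDM-HFS libraries, against 338 to 881 in Lean-HFS libraries. A two-sided exact permutation test of their mean level between dams gave p = 0.565. In GDM-LF 1, with the second lowest macrophage sum, Il1a, Il1b, Il6 and Csf3 lay above all Lean-LF libraries, where 35.8% of all tested genes did. With the macrophage level as a covariate the averaged differences were 2.16 for Csf3 (limma adjusted p = 0.0303), 2.18 for Il1a (0.0267) and 1.62 for Il6 (0.0620). In GDM-HFS 3, with the lowest sum, Il1a and Il1b had no read. Il6 (198) and Csf3 (5.19) lay above all Lean-HFS libraries there, where 31.8% of all tested genes did. Il1r1, Il1rn, Il1b and Csf1 lay below all of them, where 32.3% did. Of 12 neutrophil markers only S100a9 had a mean of at least 1, and Mpo, Cxcr1, Ltf and Np4 were at 0 in every library. Their sum was 2.04 to 29.8 in GDM-LF libraries, against 1.60 to 3.91 in Lean-LF libraries, and 3.66 to 8.08 in GDM-HFS libraries, against 1.82 to 5.83 in Lean-HFS libraries.

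All 16 acinar markers had a mean of at least 1, and their sum was 40021 to 696339 in GDM-LF libraries, against 28074 to 79153 in Lean-LF libraries. On the HFS diet it was 112569 to 225302 in GDM-HFS libraries, against 42928 to 232976 in Lean-HFS libraries. A two-sided exact permutation test of their mean log2 level, not of the sums, gave p = 0.175 between dams. With the acinar level as a covariate the averaged differences were 1.54 for Csf3 (limma adjusted p = 0.0507), 1.27 for Il1a (0.160) and 1.03 for Il6 (0.150), all short of the threshold. Immediate early genes, of which 12 of 12 had a mean of at least 1, summed to 3471 to 12555 in GDM-LF libraries, against 1970 to 2527 in Lean-LF libraries. On the HFS diet they summed to 2644 to 5181 in GDM-HFS libraries, against 2146 to 2821 in Lean-HFS libraries. The exact permutation test of their mean log2 level gave p = 0.155. In GDM-LF 3, the acinar sum of 40021 lay within the range of the Lean-LF libraries, and the immediate early sum of 3471 lay above it. Il1a, Il1b, Il6 and Csf3 also lay above all Lean-LF libraries in GDM-LF 3. In that library 29.6% of all tested genes lay above all Lean-LF libraries. With the level of Rn45s, the ribosomal RNA precursor, as a covariate the averaged differences were 2.09 for Csf3, 1.03 for Il1a and 0.87 for Il6, and none of the 9 passed (limma adjusted p = 0.998 for each of the 3). Beyond these fits, the part of macrophages, acinar cells, immediate early genes and ribosomal RNA in the differences was not tested.

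**Figure D4:**
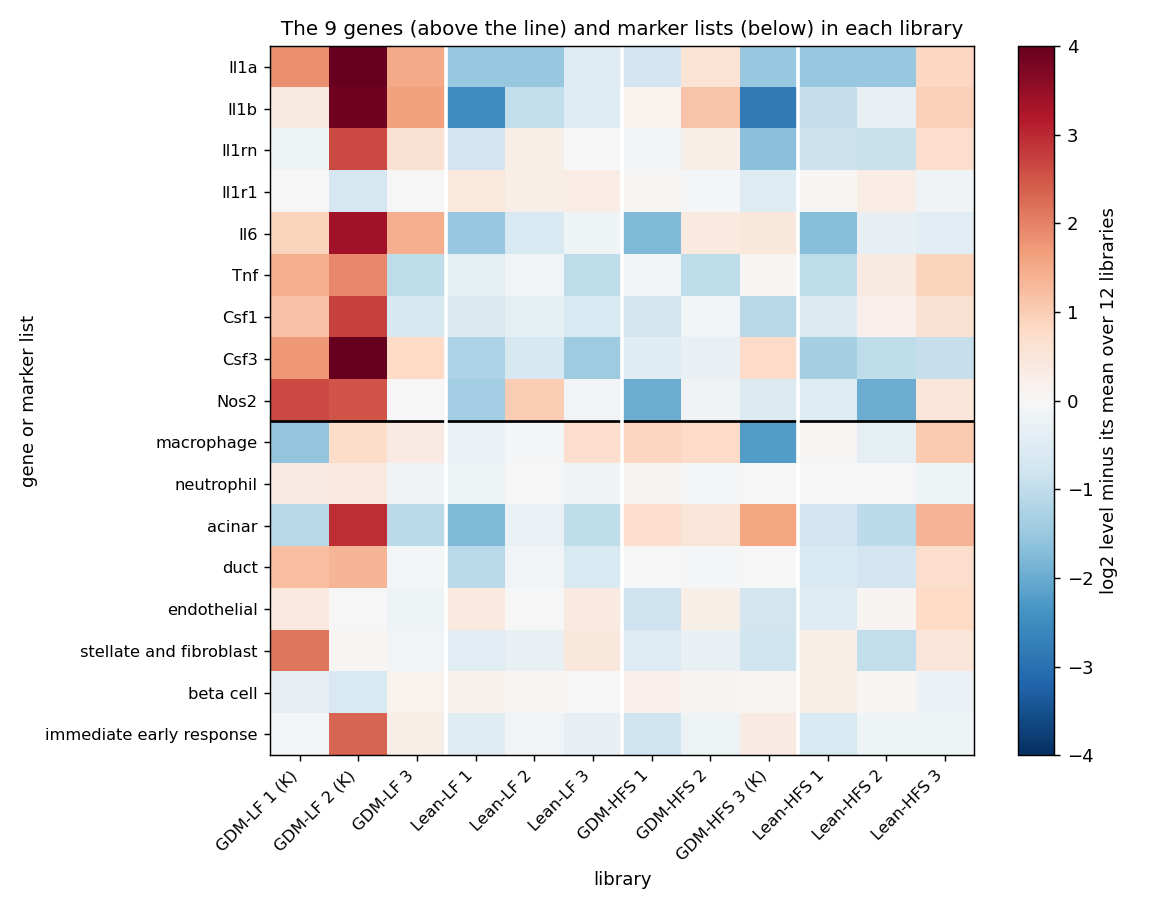
Log2 level of each of the 9 genes (above the line) and mean log2 level of 8 marker lists (below it) in every library, each row less its mean over the 12 libraries, on a colour scale that ends at -4 and 4. Red is above and blue below the mean. GDM-LF 2 is red for 8 of the 9 genes and for acinar and immediate early genes. GDM-LF 3 is red for Il1a, Il1b, Il1rn, Il6 and Csf3, slightly above the mean for immediate early genes and blue for acinar genes.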

How the data were processed

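Ribosomal RNA was depleted and libraries were made with a directional kit, per the labels' protocols. STAR 2.5.1b, HOMER 4.9 and DESeq2 (no version) are named in the submitters' processing notes. The deposited values are a signal per gene on build rn5, summed over exons of both strands, per the file headers, so reads from antisense or overlapping genes cannot be told apart. FPKM is the unit named in the header, yet the authors scaled the values to depth only, not to length: whole reads were recovered for 100% of values up to 1000 reads (tolerance 0.1 of a read). Libraries were matched through the column names, whose order within groups differs from the header's.

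Each library was divided by its median ratio to gene-wise geometric means (11337 genes above 0 in all libraries). On log2(scaled value + 1) of the 12339 genes with a mean of at least 1, limma 3.58.1 (R 4.3.3) estimated 1 mean per group with a mean-variance trend. Each of the 7 contrasts had its own Benjamini-Hochberg adjustment (threshold 0.05). Fold changes on that scale understate changes of low genes. edgeR 4.0.16 and DESeq2 1.42.0 on the recovered reads, other pseudocounts, filters and scalings, covariates, a replicate block and leaving out libraries were alternatives. The limma and edgeR fits were tested on simulated data. Genes named are the 9, fixed receptors and inhibitors, up to 8 other pathway genes past the threshold per comparison, and the 3 tested genes most correlated with each of the 9. Csf2, Myd88, Casp1 and Nlrp3 were named after their values were seen. The 9 genes and all lists were chosen with earlier results of these data known.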

Additional observations from a re-analysis of the deposited data

How the results depend on the processing

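Of the 9 genes, 3 were called for GDM averaged over diets. The count was 0 with Rn45s (ribosomal RNA) or the acinar level as a covariate and without the K libraries, where limma called 0 of all genes with Rn45s or without the K libraries but 212 higher and 93 lower with the acinar level. It was 1 with the length trend removed, with no filter or with no mean-variance trend. Leaving out each library gave 0 to 3. On the LF diet 2 were called. DESeq2 and library quality weights gave 4, and edgeR, a minimum mean of 5 and a pseudocount of 0.5 gave 1. With the weights limma called 884 of all tested genes higher and 884 lower. A pseudocount of 4, no filter, no mean-variance trend, only the compared groups, the length trend removed, the replicate block, the Rn45s, acinar or macrophage covariate and dropping the K libraries gave 0, and leaving out each library gave 0 to 6. Under each of these settings with 0, limma called 0 of all tested genes on the LF diet, while DESeq2 called 911 higher and 735 lower. The 6 on the LF diet were called without GDM-LF 3, which leaves only K libraries in that group. There limma called 898 of all tested genes higher and 782 lower. For the HFS diet in GDM offspring 0 were called, with 1 by DESeq2 and 0 to 1 on leaving out each library. The 1 on leaving out a library also came without GDM-LF 3, with 15 of all tested genes called higher and 25 lower. Without the K libraries GDM-LF is a single library, assumed to vary like the other groups. No other comparison moved from 0 under the alternatives run, although for GDM on the HFS diet DESeq2 gave an adjusted p for only 2 of the 9 genes.

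Signs reversed only for differences that were not called. For GDM averaged over diets, the acinar covariate gave -0.0854 for Il1rn, -0.0587 for Tnf and -0.0947 for Csf1, and the Rn45s covariate gave -0.0081 for Csf1. Without the K libraries Tnf was at -0.57, Csf1 at -0.32 and Nos2 at -0.13, on the LF diet Tnf at -0.51 and Csf1 at -0.13, and for HFS in GDM offspring Csf1 at 0.23. On the HFS diet the acinar and Rn45s covariates gave -0.0070 and -0.660 for Il6 and -0.433 and -1.31 for Il1a. There Il1b was at 0.168 with quality weights, 0.129 with the macrophage covariate, 0.169 with edgeR and 0.748 without the K libraries, and Il1rn at 0.0928, 0.178 and 0.416 with the weights, the macrophage covariate and no K libraries and at 0.0571 with no rescaling. Leaving out each library gave -0.412 to 0.941 for Il1a, -1.23 to 0.748 for Il1b and -0.523 to 0.416 for Il1rn. For HFS in GDM offspring Il1r1 was at -0.0271 without the K libraries and -0.189 to 0.196 on leaving out each library. In lean offspring Nos2 ranged from -1.11 to 0.151 on leaving out each library, and averaged over dams Il1r1 was at 0.0186 with the acinar covariate. The cause was not tested.

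Deviations of same-numbered libraries from their group means had correlations of -0.50 to 0.20. Differently numbered libraries were not compared, so whether replicate numbers pair samples is not settled. With the replicate block 2 of the 9 genes were called for GDM averaged over diets. With no rescaling the median of all genes moved to -0.35 for the HFS diet in lean offspring, -0.14 for that diet over both kinds of dam, -0.17 for GDM on the LF diet, 0.20 for GDM on the HFS diet and 0.42 for the interaction. Depth limits Tnf, with 0 to 24 reads per library, and Il1a, with no read in 5 libraries.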

Other observations

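Other cells of the islet preparations are given as values. Duct markers, with 7 of 7 genes in the table at a mean of at least 1, summed to 3431 to 9195 in GDM-LF libraries, against 2391 to 3555 in Lean-LF libraries. On the HFS diet they summed to 4203 to 5130 in GDM-HFS libraries, against 3324 to 7160 in Lean-HFS libraries. A two-sided exact permutation test of their mean log2 level, not of the sums, gave p = 0.09 between dams. Endothelial markers summed to 757 to 1109 in GDM-LF libraries, against 975 to 1286 in Lean-LF libraries, and 472 to 1016 in GDM-HFS libraries, against 695 to 1577 in Lean-HFS libraries (exact permutation p = 0.165). Among lymphocyte markers, 2 of 9 genes had a mean of at least 1. Whether these cells contribute to the differences was not tested.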
